A study of Mus musculus with 18 samples.

Results

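The genes described are 9 of the 34932 in the deposited table: the metallothioneins Mt1, Mt2 and Mt3, the metal-sensing transcription factor Mtf1, the SLC30 transporters Slc30a1, Slc30a3 and Slc30a10, and the SLC39 transporters Slc39a4 and Slc39a14. They were taken by symbol, through the Ensembl identifiers of the table, and followed in every library. Total RNA was sequenced from liver, brain and testis of unrestrained control mice and of mice given chronic restraint stress, that is, confined over and over. Each of the 6 groups had 3 libraries described as biological replicates, 18 in all, and the code numbers of the samples are shared between tissues, without a statement that a number marks 1 animal. The labels name no other treatment or allele, and the sources used here do not give strain, age or restraint schedule. The protocol for RNA extraction speaks of hippocampus, whereas the samples carry the label brain, which is kept below. One code of stress brain replicate 3 has the prefix of the control samples, whereas its title and treatment say stress.

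Metallothioneins are small proteins, rich in cysteine, that bind zinc and copper and buffer them inside the cell. When free zinc rises, MTF1 binds short metal response elements near the start of metallothionein genes and of Slc30a1 and switches them on. Glucocorticoids also induce Mt1 and Mt2, and in liver both are known as strongly inducible by zinc, fasting, inflammation and stress hormones. Mt3 is the form known from the nervous system. SLC30 proteins (ZnT) move zinc out of the cytosol, across the cell surface or into vesicles, and SLC39 proteins (ZIP) bring zinc into it.

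The 3 metallothionein transcripts are short, and their coding sequences show what the family shares. They are printed from the GENCODE M21 transcripts of the GRCm38 assembly, from the start codon to the stop codon, with every cysteine codon (tgc or tgt, in frame) in capitals.
Mt1: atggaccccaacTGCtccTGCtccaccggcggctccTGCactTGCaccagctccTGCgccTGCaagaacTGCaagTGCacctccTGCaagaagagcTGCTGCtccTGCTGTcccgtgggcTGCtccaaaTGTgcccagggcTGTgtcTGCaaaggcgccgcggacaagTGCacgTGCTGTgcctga
Mt2: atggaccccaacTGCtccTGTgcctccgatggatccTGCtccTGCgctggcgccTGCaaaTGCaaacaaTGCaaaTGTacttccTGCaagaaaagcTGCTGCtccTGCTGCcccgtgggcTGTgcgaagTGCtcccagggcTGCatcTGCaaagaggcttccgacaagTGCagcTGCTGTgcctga
Mt3: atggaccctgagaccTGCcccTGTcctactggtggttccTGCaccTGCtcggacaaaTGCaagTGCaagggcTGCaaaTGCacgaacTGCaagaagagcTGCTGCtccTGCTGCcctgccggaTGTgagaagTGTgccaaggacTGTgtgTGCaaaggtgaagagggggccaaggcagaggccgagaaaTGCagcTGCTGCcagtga
Mt1 and Mt2 had 61 codons before the stop, of which 20 (32.8%) coded for cysteine. Mt3 had 68 codons and also 20 for cysteine (29.4%). Aligned over their length, Mt1 and Mt2 were identical at 79.6% of coding bases, Mt1 and Mt3 at 66.2%, and Mt2 and Mt3 at 67.6%. Of all windows of 50 bases along each transcript (500 in Mt1, 462 in Mt2 and 487 in Mt3), 0 occurred in the transcript of another gene, so a read of that length without errors belongs to 1 of the 3 genes.

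The metal response element was searched as the 7-base cores TGCACNC and TGCGCNC on both strands, with overlapping matches counted once. The annotated transcripts start upstream of the TATA box of these genes, so the elements next to it lie in the annotated leader, the stretch before the start codon. Mt1 held 4 matches in a leader of 229 bases, Mt2 held 3 in 184 bases and Mt3 held 3 in 193 bases. Within the first 180 bases of 58664 coding transcripts, 3 or more matches occurred in 0.31%. Those transcripts were not chosen to start upstream of a TATA box, as the metallothionein transcripts do. The share may thus compare unlike stretches. The matches nearest the TATA box are printed below with their flanks, with the core letters in capitals. Counted from the start of the annotated transcript, they cover bases 92 to 121 of Mt1, 54 to 83 of Mt2 and 75 to 104 of Mt3.
Mt1: GGGTGCAaacccttTGCGCCCggactcgtc
Mt2: gggcggagctttTGCGCTCgacccaatact
Mt3: caagtcgctgctTGCGCGCccccgcctggg
The letters TATAAA followed 16 bases after the last match in Mt1, 17 in Mt2 and 13 in Mt3. In Mt1 the first capitals are a match on the opposite strand. In the 250 bases before the annotated start (RefSeq, GRCm38.p6, matched for 7 of the 9 genes), there were 3 matches for Mt2, 2 for Slc30a10, 1 for Mt1 and Slc30a1, and 0 for Mt3 and Mtf1. Slc30a3 had 1 match before one of its starts and 0 before the other. Of 32851 such windows over all genes, 21.406% held at least 1 match and 0.77% held 3 or more. A full glucocorticoid response element (AGAACA, any 3 bases, TGTTCT) was in 0.009% of windows and in none of the 7. So rare a sequence would be missing from almost any 7 windows. Its absence therefore says nothing on whether these genes respond to glucocorticoids. These matches describe letters, not binding. The metallothionein genes lie side by side on chromosome 8 of that assembly, in the order Mt4, Mt3, Mt2 and Mt1.

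Total counts ranged from 27.85 to 36.5 megacounts per library. Hepatocyte, neuron and germ cell markers separated the tissues as labelled. The lowest hepatocyte marker sum in liver was 76850 CPM (counts per megacount of the library), and the highest sum elsewhere was 497.1 CPM, in a brain library and mostly through Ttr. Neuron markers summed to between 9165 and 10590 CPM in brain and never passed 11.9 CPM in liver. The germ cell sum was 14530 CPM or above in testis and 12.96 CPM or below in brain. Some other lists did not separate them. Sertoli cell sums were 2856 CPM or above in liver and 2138 CPM or below in testis. Choroid plexus sums were 4952 CPM or above in liver and 731.1 CPM or below in brain. Hippocampal sums were 910 CPM or above in liver and 551 CPM or below in brain. Such sums are compared below only within a tissue. Levels are given below as FPKM, the deposited value scaled to gene length and sequencing depth, when genes or tissues are set side by side. They are given as CPM with TMM scaling within a tissue, which corrects for library composition, when stress is set against control. For single genes, overlap of stress and control groups was read from these TMM-scaled values. Log2 differences with a standard error (SE) and p come from edgeR, with p adjusted over all genes tested and a threshold of 0.05. In bulk tissue, fewer cells of a type and less RNA per cell cannot be told apart.

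Mt1 was the most abundant of the 29 genes formed by the metallothioneins, Mtf1 and all SLC30 and SLC39 genes by mean FPKM in the control libraries of each tissue. Its control level was 357.6 ± 29.2 FPKM in brain, 302.4 ± 23.4 FPKM in testis and 181.6 ± 135.0 FPKM in liver (SD, n = 3). The liver value spread most, with 96.1 and 111.4 FPKM in control replicates 1 and 2 and 337.2 FPKM in replicate 3. Mt2 stood at 122.6 ± 18.3 FPKM in brain, 132.2 ± 15.5 FPKM in testis and 54.3 ± 48.5 FPKM in liver (SD, n = 3), and replicate 3 was again the high one in liver (23.6, 29.0 and 110.2 FPKM). Neither gene passed the test between control liver and either other tissue. The liver minus brain log2 difference under TMM was 0.05 for Mt1 (SE 0.42, adjusted p = 0.918) and -0.15 for Mt2 (SE 0.51, adjusted p = 0.792). Without control liver replicate 3, Mt1 was lower in liver than in brain by -0.69 (adjusted p = 0.00314) and Mt2 by -1.12 (adjusted p = 0.000882). Against testis the differences of liver were -0.02 for Mt1 (SE 0.39, adjusted p = 0.961) and -0.58 for Mt2 (SE 0.47, adjusted p = 0.27), and without that library -0.76 and -1.55 (adjusted p = 0.00098 and 2.91e-05). Brain and testis did not differ in Mt1 beyond the spread (-0.06, SE 0.10, adjusted p = 0.568). Mt2 was lower in brain than in testis by -0.42 (SE 0.14, adjusted p = 0.0171), a call lost without control brain replicate 1 (adjusted p = 0.0686) or control testis replicate 1 (adjusted p = 0.0643).

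Mt3 had a tissue pattern of its own. Its control level was 297.2 ± 28.9 FPKM in brain (SD, n = 3), next after Mt1 among the 29 genes, and it ranked 74 to 94 by FPKM among all genes of the 3 libraries. In stress brain it stood first of the 29 genes, at rank 33 to 41. It was 1.55 ± 0.852 FPKM in testis (SD, n = 3), from 25, 10 and 40 counts. In liver it had 0 counts in all 6 libraries. Brain exceeded testis by 7.26 on the log2 scale (SE 0.28, adjusted p = 1.53e-08). Against liver, brain was at least 1538-fold higher when scaled by library size alone, from the lowest brain library and the highest floor of liver at 3 counts per library. Library sizes alone moved the median log2 difference of all genes by -1.04 between liver and brain, so this bound would be lower under TMM scaling. Mt4, the form known from stratified epithelia, had at most 2 counts in any library.

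**Figure D1:**
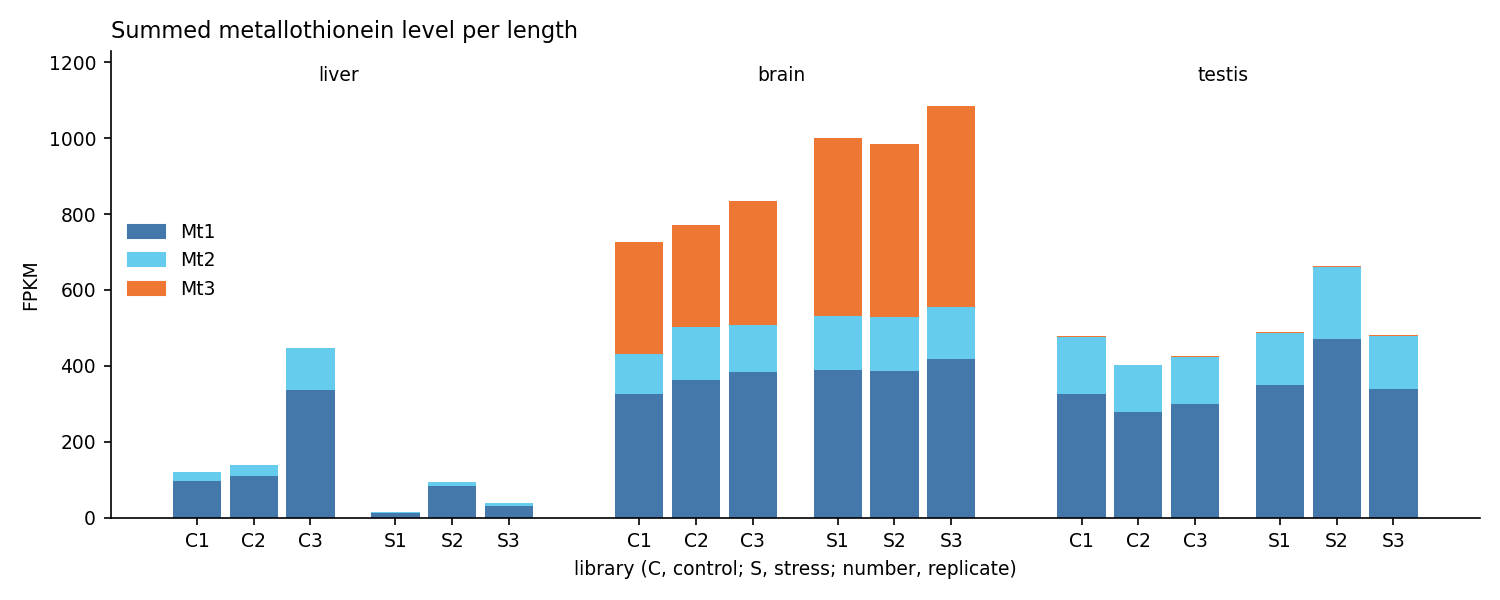
Summed FPKM of Mt1, Mt2 and Mt3 (y axis) in each of the 18 libraries (x axis, C for control and S for stress), stacked by gene. Mt3 forms a visible part of the bar in brain alone, and control liver replicate 3 stands above the other liver bars.

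Mt1 and Mt2 kept a similar proportion to each other in brain and testis. The ratio of Mt1 to Mt2 FPKM lay between 2.575 and 3.143 over the 6 brain libraries and between 2.176 and 2.518 over the 6 testis libraries. In control liver it was 4.078, 3.834 and 3.061, and in stress liver 7.894, 7.079 and 3.095. The ratio in 2 stress liver libraries was thus above all others, and that of stress replicate 3 lay at the level of control replicate 3. Mt3 gave 40.71%, 34.88% and 39.15% of the summed metallothionein FPKM in control brain, and 46.92%, 46.18% and 48.84% in stress brain, where the groups did not overlap.

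Mtf1, the sensor, was highest in testis. Control libraries had 18.6, 19.1 and 20.9 FPKM there, against 3.43, 3.40 and 4.64 FPKM in brain and 1.35, 1.57 and 2.08 FPKM in liver. Testis exceeded brain by 2.66 on the log2 scale (brain minus testis -2.66, SE 0.14, adjusted p = 1.1e-07) and liver likewise (liver minus testis -2.81, SE 0.15, adjusted p = 9.69e-08). Liver and brain did not differ under TMM scaling (-0.16, SE 0.20, adjusted p = 0.463), whereas with library sizes alone liver was lower by -1.20 (adjusted p = 0.000585). The summed metallothionein FPKM was highest in brain, with 725.9 to 835 in control libraries. It was 403.6 to 478.3 in control testis and 119.7 to 447.4 in control liver. Library sizes alone, on which FPKM rests, moved the median log2 difference of all genes by -1.04 between liver and brain and by 0.30 between brain and testis. Under TMM scaling the lead of brain would thus be smaller, and the order of the sums was not tested. Mt3 gave 34.88% to 40.71% of the sum in control brain and at most 0.5556% in control testis.

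Among the exporters, Slc30a1, which carries zinc out across the cell surface, was nearly level over tissues in FPKM. Control means were 7.36 ± 0.632 FPKM in liver, 8.06 ± 1.06 FPKM in brain and 7.05 ± 0.980 FPKM in testis (SD, n = 3). The TMM-scaled test placed liver above brain by 0.91 (SE 0.13, adjusted p = 0.000235), but the sign turned with library sizes alone (-0.13, adjusted p = 0.39), so no order is given for it. Slc30a3, which loads zinc into synaptic vesicles, was high in brain (42.4, 38.2 and 29.8 FPKM) and higher in testis (58.8, 58.2 and 57.9 FPKM). The brain minus testis difference was -0.97 (SE 0.13, adjusted p = 6.93e-05), and the groups did not overlap. In liver Slc30a3 had 24 to 58 counts per control library, or 0.391 ± 0.218 FPKM (SD, n = 3). Slc30a10, known as a manganese exporter of liver and brain, had 7.41, 4.74 and 8.26 FPKM in control liver and 3.42, 3.23 and 3.39 FPKM in control brain. Liver exceeded brain by 2.06 (SE 0.20, adjusted p = 1.91e-05). In control testis it had 0 counts in 3 libraries. Scaled by library size alone, liver was thus at least 256.6-fold and brain at least 175.1-fold higher, from the lowest library of each and the highest floor of testis at 3 counts per library. Library sizes alone moved the median log2 difference of all genes by 0.30 between brain and testis and by -0.74 between liver and testis. Under TMM scaling the brain bound would thus be lower and the liver bound higher.

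Both importers were highest in liver. Slc39a4, best known for zinc uptake in the intestine, had 15.6, 22.1 and 22.6 FPKM in control liver, 1.08, 0.824 and 1.03 FPKM in testis and 0.160, 0.208 and 0.394 FPKM in brain. Liver exceeded brain by 7.31 (SE 0.32, adjusted p = 1.4e-07) and testis by 5.09 (SE 0.20, adjusted p = 1.18e-08), and brain was below testis by -2.23 (SE 0.38, adjusted p = 0.000406). Slc39a14, which imports zinc, iron and manganese and responds to inflammation in liver, had 10.8, 16.3 and 21.8 FPKM in control liver, 3.12, 3.49 and 3.20 FPKM in brain and 0.828, 1.12 and 1.19 FPKM in testis. Its order was liver, brain and testis, with liver minus brain at 3.35 (SE 0.24, adjusted p = 2.75e-06) and brain minus testis at 1.34 (SE 0.14, adjusted p = 1.32e-05).

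In these comparisons of control tissues, 4 of 9 members were called higher and 2 lower in liver than in brain, beside 34.4% higher, 45.6% lower and 80.1% in either direction of all genes. Against testis, liver had 4 higher and 3 lower (all genes 34.5%, 54% and 88.5%), and brain had 3 higher and 4 lower (all genes 41.2%, 47% and 88.1%). Counted in either direction, the members' shares were not above those of all genes. Library sizes alone moved the median log2 difference of all genes by -1.04 between liver and brain, by -0.74 between liver and testis and by 0.30 between brain and testis. Of the genes called between liver and brain, 43.0% were higher in liver under TMM and 24.4% with library sizes alone. Of the 9 members, only Mt1, Mt2, Mtf1 and Slc30a1 changed a sign or a call under that scaling. For Mt1, brain then exceeded testis by 0.24 (adjusted p = 0.0385) and liver minus brain was -0.98 (adjusted p = 0.063). For Mt2, liver was then below testis by -1.29 (adjusted p = 0.0313), and the brain minus testis difference was -0.11 (adjusted p = 0.441).

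**Figure D2:**
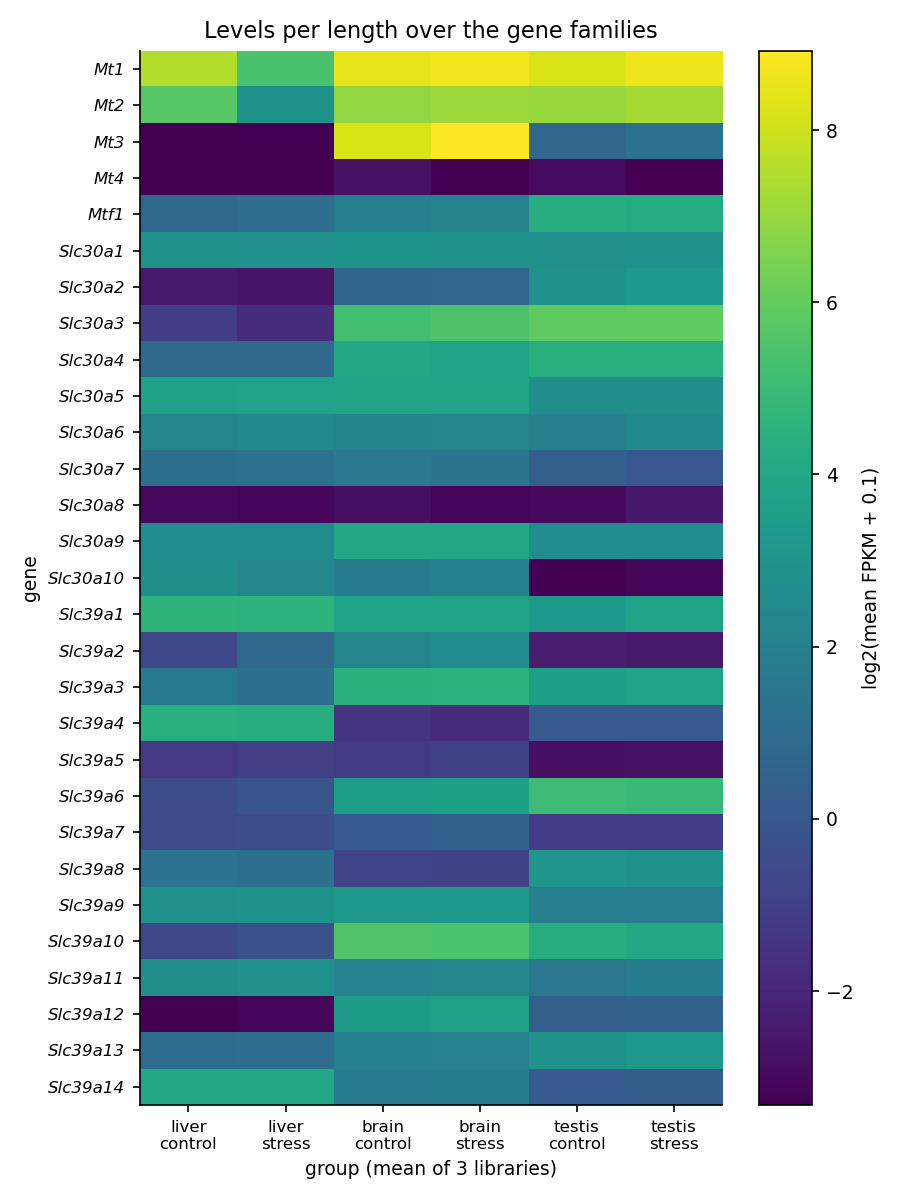
Mean level of 29 genes (rows) in the 6 groups (columns, 3 libraries each), as log2 of the mean FPKM plus 0.1 in colour. Mt3 is bright in brain and dark in liver, Slc39a4 is brightest in liver, and Slc30a3 is bright in brain and testis.

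Restraint was then set against control within each tissue. In liver, Mt1 and Mt2 were lower in every stress library than in any control library, with wide spread, and neither passed the adjusted threshold of 0.05. Mt1 had 53.0, 61.1 and 180.2 CPM in the control libraries and 7.37, 45.1 and 15.8 CPM in the stress libraries. The means were 98.1 ± 71.2 and 22.8 ± 19.8 CPM (SD, n = 3), a 4.31-fold lower mean under stress. The fitted log2 difference was -2.11 (SE 0.64, edgeR unadjusted p = 0.00893, adjusted p = 0.138). Mt2 had 13.4, 16.4 and 60.6 CPM in control and 0.961, 6.56 and 5.27 CPM in stress, a 7.07-fold lower mean. Its fitted difference was -2.82 (SE 0.70, unadjusted p = 0.00277, adjusted p = 0.0780). Control replicate 3 was far above the other control libraries for both genes, and stress replicate 1, with 30 Mt2 counts, was the lowest. Without control liver replicate 3 the differences were -1.32 for Mt1 (adjusted p = 0.291) and -1.80 for Mt2 (adjusted p = 0.163), and without stress liver replicate 2 Mt1 passed at -3.08 (adjusted p = 0.0357). With no filter on low counts both passed (adjusted p = 0.000404 for Mt1 and 2.67e-05 for Mt2, beside 3.69% of genes called), while DESeq2 called neither (adjusted p = 0.159 and 0.0553). By FPKM, Mt1 ranked 181 to 642 among all genes in control liver and 691 to 2717 in stress liver.

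**Figure D3:**
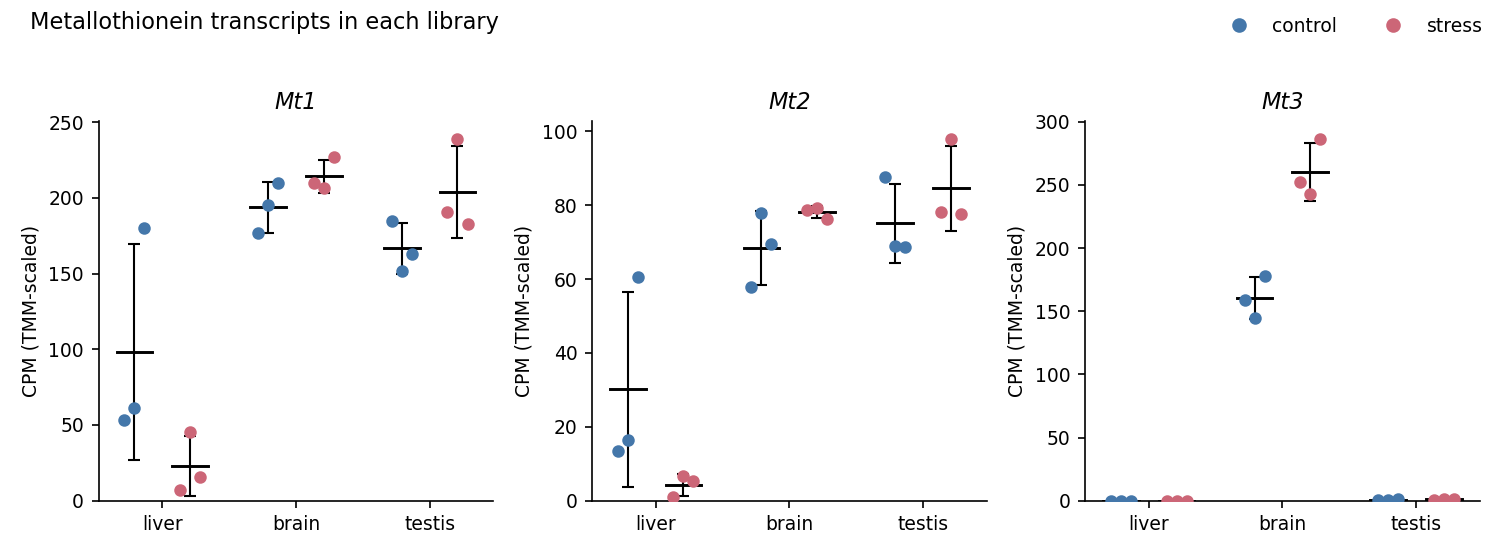
TMM-scaled CPM (y axis, linear, from 0) of Mt1, Mt2 and Mt3 in each library (points) with the group mean and SD (bars), by tissue and treatment. In liver the Mt1 and Mt2 stress points lie below all control points, and in brain the Mt3 stress points (242.5 to 286.1 CPM) lie above all control points (144.6 to 177.9 CPM).

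The other liver members had overlapping groups. Slc30a10 had 44.2, 28.1 and 47.7 CPM in control and 23.6, 31.8 and 31.9 CPM in stress, with a difference of -0.46 (SE 0.21, adjusted p = 0.296). Slc30a3 was low in all libraries (0.36 to 1.8 CPM), with a difference of -1.04 (SE 0.52, adjusted p = 0.347). Mtf1 was at 12.3, 14.2 and 18.3 CPM in control and 15.6, 17.7 and 19.4 CPM in stress (0.23, SE 0.17, adjusted p = 0.547). The exporter Slc30a1, itself a target of MTF1, had 36.7, 38.2 and 41.8 CPM in control and 36.5, 35.7 and 40.9 CPM in stress, with a difference near 0 (-0.05, SE 0.12, adjusted p = 0.885). Slc39a4 had 35.4, 49.95 and 49.7 against 44.3, 47.2 and 37.3 CPM (-0.07, SE 0.16). Slc39a14 had 116.2, 174.5 and 227.3 against 146.4, 180.5 and 170.6 CPM (-0.06, SE 0.22). The signs of Slc30a1, Slc39a4 and Slc39a14 turned when single libraries were left out.

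In liver, edgeR called 0 of the 8 members tested (2 at an unadjusted p under 0.05, Mt1 and Mt2), beside 1.63% of all 14253 genes tested (17.2% at an unadjusted p under 0.05). DESeq2, which called 5.93% of genes, and limma-voom also called 0 members, and a replicate block, which called 3.33% of genes, called Mt2. The labels do not say what the replicate numbers of that block share. The groups did not overlap for 2 of the 8 members, both lower in stress, and for 23% of all genes, 11.1% lower in stress. Mt1 and Mt2 have lengths of 540 and 556 bases in the table. The tested genes of at most 600 bases had a median log2 difference of -0.12 in liver, with 40.04% above 0. The part of gene length in the liver values was not tested. Other lists differed between the same liver libraries. Kupffer cell markers summed to 85.5 to 103.4 CPM in control and 183.2 to 221.2 CPM in stress, and 8 of 10 were called higher. None of these 10 was at 0 in a liver library. Hepatocyte markers summed to 85620 to 100600 CPM in control and 76850 to 96420 CPM in stress, with 1 of 10, Fgb, called lower. Interleukin 6 and acute phase genes summed to 8031 to 10340 CPM in control and 7435 to 7929 CPM in stress, with 2 of 12, Socs3 and Fgb, called lower. Of 5 glucocorticoid reference genes, Fkbp5, Tsc22d3 and Zbtb16 were called higher, and the median log2 difference over the 5 was 1.67. The part of these lists in the metallothionein values was not tested.

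In brain, Mt3 differed most of the members. It had 159.2, 144.6 and 177.9 CPM in control and 252.0, 242.5 and 286.1 CPM in stress. All stress libraries lay above all control libraries, and the mean was 1.62-fold higher (160.6 ± 16.7 against 260.2 ± 22.9 CPM, SD, n = 3). The log2 difference was 0.70 (SE 0.10, edgeR unadjusted p = 0.000186), the 9th smallest p of 17668 genes. It did not pass after adjustment (adjusted p = 0.357). Libraries with the same replicate number deviated together in brain. With the replicate number as a block in edgeR the same difference passed (adjusted p = 0.0120), beside 0.125% of genes called in that fit. This pairing was read from the data, not from the labels, and can make p-values too small. DESeq2 also called Mt3 (adjusted p = 9.4e-06), beside 0.859% of genes. Leaving out each library in turn gave differences of 0.62 to 0.78, all short of the threshold in edgeR (adjusted p 0.13 to 0.974).

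The other metallothioneins differed less in brain. Mt1 had 176.5, 195.1 and 210.1 CPM in control and 209.7, 206.7 and 226.7 CPM in stress (0.14, SE 0.09, adjusted p = 0.736). Mt2 had 57.8, 78.0 and 69.4 CPM in control and 78.7, 79.2 and 76.3 CPM in stress (0.19, SE 0.11, adjusted p = 0.728). Both had overlapping groups in TMM-scaled CPM. By FPKM the Mt1 groups in brain did not overlap, with 384.5 FPKM as the highest control and 386.0 FPKM as the lowest stress value. The share of all genes without overlap by FPKM is not given here (13.8% in TMM-scaled CPM). Slc30a3 (120.5, 108.0 and 85.5 against 113.9, 153.2 and 121.0 CPM) and Slc30a10 (20.0, 18.8 and 20.0 against 19.2, 26.8 and 25.4 CPM) also overlapped, with differences of 0.31 (SE 0.15, adjusted p = 0.699) and 0.28 (SE 0.13, adjusted p = 0.69). Mtf1 had 30.6, 30.3 and 41.8 against 36.3, 39.4 and 40.1 CPM (0.17, SE 0.14). Slc30a1 had 38.1, 48.5 and 40.7 against 34.6, 42.3 and 41.2 CPM (-0.11, SE 0.12). Slc39a14 had 32.9, 36.7 and 34.2 against 35.6, 34.6 and 39.1 CPM (0.07, SE 0.09). All of these groups overlapped. Slc39a4 had 2 to 32 counts per brain library, too few for a difference to be read.

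Of the 9 members tested in brain, edgeR called 0 (1 at an unadjusted p under 0.05, Mt3), beside 0.00566% of all genes, or 1 gene (7.54% at an unadjusted p under 0.05). The groups did not overlap for 1 of 9 members, higher in stress, and for 13.8% of genes, 7.21% higher in stress. Mt3 has a length of 538 bases in the table, and the 706 tested genes of at most 600 bases had a median log2 difference of -0.0026. A difference at or above that of Mt3 was found in 7.224% of those short genes and in 2.626% of all genes. Choroid plexus markers summed to 190.7 to 222 CPM in control brain and to 196.5, 731.1 and 588.3 CPM in the stress libraries. The gene Ttr alone gave 496.2 and 318.6 CPM of the higher sums, and 0 of the 9 markers tested passed, with 6 at an unadjusted p under 0.05. Astrocyte markers summed to 3688 to 3932 CPM in control and 3707 to 4294 CPM in stress, and neuron markers to 9165 to 10590 and 9611 to 9790 CPM. The part of these lists in the Mt3 value was not tested.

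In testis no member stood apart. Mt1 had 185.0, 152.0 and 163.0 CPM in control and 190.9, 238.9 and 182.7 CPM in stress (0.29, SE 0.12, unadjusted p = 0.0410, adjusted p = 0.422). By FPKM these Mt1 groups did not overlap, with 326.5 FPKM as the highest control and 338.8 FPKM as the lowest stress value. The share of all genes without overlap by FPKM is not given here (20.9% in TMM-scaled CPM). In TMM-scaled CPM the Mt1 groups overlapped, and stress replicate 2 was the high one. Mt2 was highest in the same library (87.5, 69.0 and 68.7 against 78.1, 97.9 and 77.7 CPM), with a difference of 0.17 (SE 0.13, adjusted p = 0.569). Without stress testis replicate 2 the differences were 0.16 for Mt1 and 0.05 for Mt2. That library stood apart in other lists as well. Sertoli cell markers summed to 2138 CPM in it and to 1226 to 1312 CPM in the other 5 testis libraries. Kupffer cell markers summed to 80.96 CPM against 35.02 to 41.18 CPM, and interleukin 6 and acute phase genes to 483.4 CPM, mostly Lcn2, against 112.1 to 131.6 CPM. The part of these lists in the metallothionein values was not tested. Mtf1 had 174.3, 171.2 and 186.7 CPM in control and 168.8, 149.7 and 162.8 CPM in stress. These groups did not overlap in TMM-scaled CPM, but the difference of -0.15 (SE 0.09, adjusted p = 0.498) did not pass. By FPKM the Mtf1 groups overlapped, with 18.65 FPKM as the lowest control and 18.70 FPKM as the highest stress value. Slc30a3 had 174.8, 166.0 and 164.5 against 166.1, 176.9 and 170.0 CPM, a difference of 0.02 (SE 0.08, adjusted p = 0.921).

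Slc30a10 had 4, 2 and 3 counts in the stress testis libraries and was not tested, and Mt3 had 10 to 47 counts per library (0.48, SE 0.45, adjusted p = 0.638). Slc30a1 had 33.2, 42.2 and 37.5 against 39.6, 38.6 and 39.7 CPM (0.06, SE 0.11). Slc39a4 (1.67 to 2.56 CPM) and Slc39a14 (9.17 to 13.7 CPM) differed by -0.04 (SE 0.25) and 0.05 (SE 0.17). The signs of Slc30a1, Slc30a3, Slc39a4 and Slc39a14 depended on scaling or on single libraries. Of 8 members tested, edgeR called 0 (1 at an unadjusted p under 0.05, Mt1), and DESeq2 and limma-voom also called 0, beside 0.0201% of all genes called by edgeR and 0.332% by DESeq2 (11.7% at an unadjusted p under 0.05). The groups did not overlap for 1 of 8 members, lower in stress, and for 20.9% of genes, 10.7% lower in stress.

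**Figure D4:**
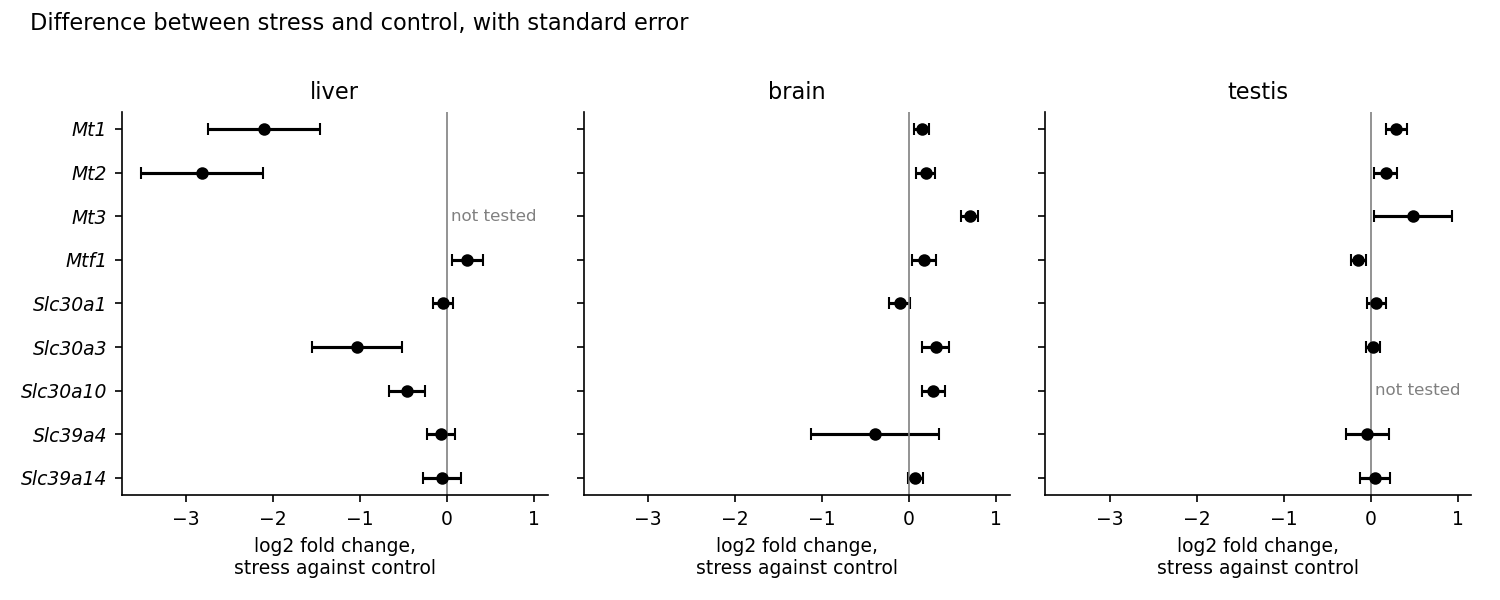
Log2 difference between stress and control (x axis) with its standard error (bars) for the 9 genes (y axis) in liver, brain and testis. Mt1 and Mt2 lie far left of 0 in liver with long bars, and Mt3 lies right of 0 in brain with a short bar; Mt3 in liver and Slc30a10 in testis were not tested.

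**Figure D5:**
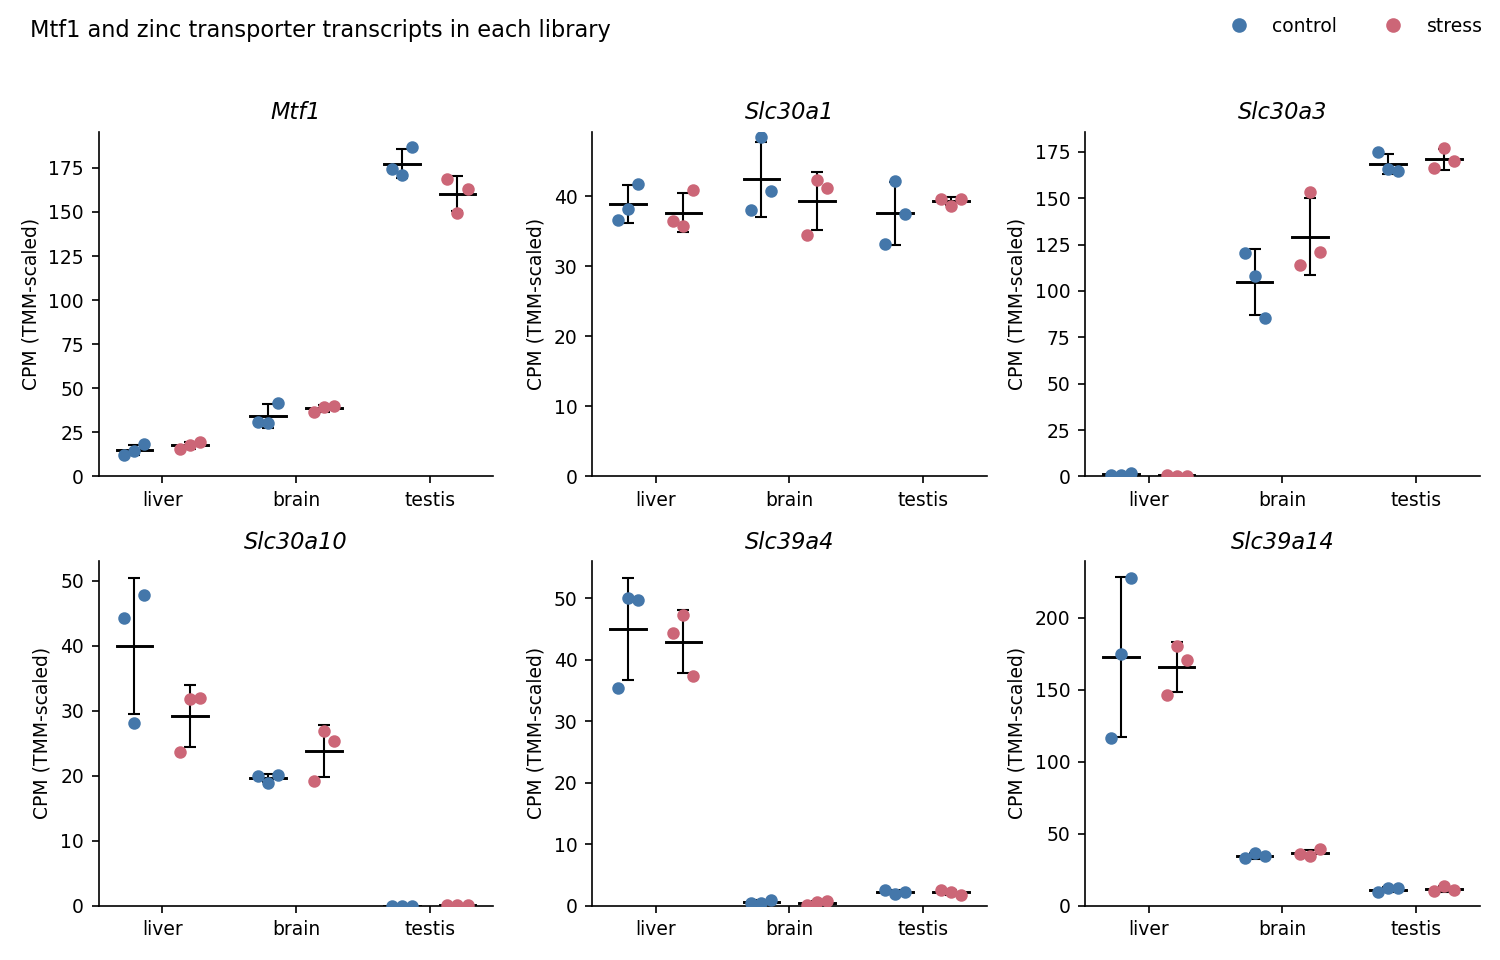
TMM-scaled CPM (y axis, linear, from 0) of Mtf1 and 5 zinc transporters in each library (points) with the group mean and SD (bars), by tissue and treatment. Differences between tissues are large for all but Slc30a1, and stress and control points overlap except for Mtf1 in testis and the near-zero Slc30a10 in testis.

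The stress difference was also compared between tissues, as an interaction in 1 fit over 12 libraries. For Mt2 it was lower in liver than in brain by -3.003 (SE 0.81, adjusted p = 0.147) and lower than in testis by -3.01 (SE 0.77, adjusted p = 0.118). For Mt1 the values were -2.25 (SE 0.76, adjusted p = 0.265) and -2.42 (SE 0.74, adjusted p = 0.182). Without stress liver replicate 2, both Mt1 values passed, at -3.26 (adjusted p = 0.0422) and -3.41 (adjusted p = 0.0279). In brain against testis, the stress difference of Mt3 was 0.22 larger in brain (SE 0.39, adjusted p = 0.938), so the brain value was not shown to differ from that of testis, where Mt3 has few counts. These comparisons share libraries, and Mt3 in liver and Slc30a10 in testis are at or near 0, so no interaction is read for them. Of the 9 members edgeR called 0 in each interaction, beside 0.195% of genes for liver and brain, 0.154% for liver and testis and 0% for brain and testis.

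In the wider family of 29 genes, edgeR called 0 in each tissue. In liver 24 were tested and 4 had an unadjusted p under 0.05 (17.2% of all genes had), with a median log2 difference of 0.002 against -0.009 over all genes. In brain 27 were tested and 3 were under 0.05 (7.54% of all genes), with a median of 0.053 against -0.003. In testis 24 were tested and 3 were under 0.05 (11.7% of all genes), with a median of 0.037 against 0.014. Groups did not overlap for 4 of 24 family genes in liver (16.7%, all genes 23%), 4 of 27 in brain (14.8%, all genes 13.8%) and 5 of 24 in testis (20.8%, all genes 20.9%), shares near or below those of all genes. DESeq2 called Slc39a2 in liver and Mt3 in brain, and with no filter on low counts edgeR called Mt1, Mt2 and Slc39a2 in liver. Of the 10 SLC30 genes 8, 9 and 8 were tested in liver, brain and testis, and of the 14 SLC39 genes 13, 14 and 12. The importer Slc39a2, named after its values were seen, had the smallest p of the family in liver. It had 2.62, 1.19 and 1.74 CPM in control and 7.56, 3.11 and 5.66 CPM in stress, groups that did not overlap. Its difference of 1.55 (SE 0.38, adjusted p = 0.0765) missed the threshold in edgeR and passed in DESeq2 (adjusted p = 0.00209) and, without stress liver replicate 2, in edgeR (1.83, adjusted p = 0.0386). In brain the same gene was at 0.35 (SE 0.14, adjusted p = 0.659), again with groups that did not overlap.

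Of 14 other genes that handle iron and copper, 1 was called in liver, beside 1.63% of all genes: the hepcidin gene Hamp2 (-1.85, SE 0.32, adjusted p = 0.0322). The closely related Hamp was at 0.91 (SE 0.20, adjusted p = 0.0534). Reads of such near copies can be split unevenly between them, and whether that was so here was not tested. In brain and testis 0 of 12 tested were called in edgeR, with 2 and 4 at an unadjusted p under 0.05, beside 7.54% and 11.7% of all genes. Of 5 further genes reported as MTF1 targets, Hamp among them, 0 were called in each tissue (5, 4 and 4 tested), with 1, 0 and 2 at an unadjusted p under 0.05. Their summed level in liver was 1153 to 1460 CPM in control and 1791 to 2126 CPM in stress, groups that did not overlap and in which Hamp gave most of the sum. The other 4 were at -0.83 (Ndrg1), -0.57 (Csrp1), -0.11 (Gclc) and 0.03 (Selenow) in liver, with adjusted p of 0.302 or above.

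Mt1 and Mt2 were each other's closest match. Over the 18 libraries, with log2 CPM centred on the tissue mean, their Pearson correlation was 0.965, the highest of 16552 genes for both. Next for Mt1 came Aff3 (0.953), Tnfaip6 (0.937), Srf (0.936) and Dbndd1 (0.935), and for Mt2 Aff3 (0.961), Ggps1 (0.913), Tnfaip6 (0.909) and Acly (0.908). Mtf1 was at -0.02 with Mt1 and 0.01 with Mt2, and Slc30a1 at 0.18 and 0.25. The 6 liver libraries, where Mt1 and Mt2 vary most, weigh most in these values. Over the 6 brain libraries Mt3 was closest to Rps28 (0.992), Fignl2 (0.990), Atp5k (0.990), Cul7 (0.989) and Gpt2 (0.987), and was at 0.71 with Mt1 and 0.46 with Mt2. Slc30a3 was closest to Gabra2 (0.991), Wdr86 (0.990), Kctd4 (0.989), Magi3 (0.989) and Gfpt1 (0.988). Predicted genes and pseudogenes were passed over when the closest genes were listed. These correlations describe few libraries that share treatment and scaling.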

How the data were processed

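The deposited table gives counts, TPM and FPKM of each gene. Counts were deposited by the authors as whole numbers without normalization. The deposited FPKM and TPM columns scale them by 1 length per gene and by depth. Per the submitters' processing notes the build was mm39, and the sources used here do not give aligner, counter or strand setting. Symbols came from GENCODE M21 (34362 of 34932 genes). FPKM and not TPM was used for levels, because the short gene Gm23935 took 2.726% to 16.748% of testis TPM.

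The 9 members and all gene lists were chosen with earlier results of these data known. Within each tissue, edgeR 4.0.16 (R 4.3.3) compared stress with control by its quasi-likelihood test, after filterByExpr and TMM and with treatment as the only term, with Benjamini-Hochberg adjustment over all genes tested and a threshold of 0.05. Control tissues and interactions were tested in pairs of tissues. SE is the log2 difference divided by the root of the F statistic. Alternatives were DESeq2 1.42.0, its size factors, limma-voom (limma 3.58.1), limma on log2 of TPM plus 0.1, no filter, a replicate block, leaving out each library, and, added after seeing the data, library sizes alone. The scripts were tested on simulated data.

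Named were the 9 members, other family genes past the threshold, and the 5 genes most correlated with Mt1, Mt2, Mt3 and Slc30a3. Predicted genes and pseudogenes were passed over in the latter. Any other gene was chosen after its values were seen. Same-numbered control and stress libraries correlated, as deviations from the group mean, at 0.314, 0.189 and 0.469 in brain, so the block stands beside brain results where it changes a call. This pairing was read from the data, not from the labels, and can make p-values too small. In liver (0.182, 0.061, -0.008) and testis (0.075, 0.071, -0.087) the values were lower for each number, though 0.182 in liver lies near 0.189 in brain. Across tissues, code numbers recur, but the labels do not say that a number marks 1 animal, and same-numbered libraries correlated at -0.021 to 0.068. A block by code number changed no call of a member there.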

Additional observations from a re-analysis of the deposited data

How the results depend on the processing

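Of the members, 0 were called lower under stress in liver. The count was 2 with no filter, 1 with the replicate block and 0 to 1 when each library was left out. The block gave Mt2 at -2.80 (adjusted p = 0.0166) in liver, where same-numbered libraries correlated at 0.182, 0.061 and -0.008. The labels do not say what the numbers share in any tissue. In brain, 0 called higher became 1 with DESeq2 and 1 with the replicate block (Mt3). For liver minus brain, 0 called lower became 1 with no filter (Mt2), and for liver minus testis 1 with DESeq2 (Slc30a10) and 1 with no filter (Mt2), with 0 to 1 for both when a library was left out. Slc30a10 is at or near 0 in testis, so its DESeq2 call is not read as a difference. Members lower in control liver ranged from 2 to 4 against brain and from 3 to 5 against testis when a library was left out. The block changed no other call of a member, and it brought Slc39a2 in liver past the threshold (1.54, adjusted p = 0.018). Over all genes, edgeR called 140 higher and 92 lower in liver, DESeq2 466 and 379, no filter 450 and 408, the block 261 and 214, limma on TPM 75 and 54, and leaving out each library 15 to 157 and 16 to 134. In brain the counts were 1 and 0 with edgeR, 93 and 44 with DESeq2, and 17 and 5 with the block, and in testis 1 and 3 with edgeR, 29 and 32 with DESeq2, and 10 and 15 with no filter. For the interactions DESeq2 called more genes than edgeR (liver and brain 251 and 311 against 19 and 18, liver and testis 324 and 337 against 16 and 17, brain and testis 60 and 25 against 0 and 0).

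Some small differences changed sign. With log2 of TPM plus 0.1, testis Slc30a1, Slc30a3 and Slc39a14 were at -0.0206, -0.0689 and -0.0369, and with library sizes alone testis Slc39a4 was at 0.0142. Control liver minus brain for Mt1 was -0.0209 with no filter, -0.19 with limma-voom, -0.19 with the replicate block and -0.98 with library sizes alone, and for Slc30a1 -0.13 with library sizes alone. Control brain minus testis with library sizes alone was 0.24 for Mt1 and 0.19 for Slc30a1, and the Mt2 difference, called under TMM, was lost (-0.11). Leaving out each library gave, under stress, -0.94 to 0.12 for Slc39a4 in brain, and in liver -0.10 to 0.0099 for Slc30a1, -0.28 to 0.19 for Slc39a14 and -0.21 to 0.0264 for Slc39a4. In testis it gave -0.0195 to 0.15 for Slc30a1, -0.008 to 0.0486 for Slc30a3, -0.09 to 0.15 for Slc39a14 and -0.18 to 0.12 for Slc39a4. In control tissues it gave -0.69 to 0.35 for Mt1 and -1.12 to 0.21 for Mt2 between liver and brain, -0.76 to 0.26 for Mt1 between liver and testis, and -0.15 to 0.0129 for Mt1 between brain and testis. The cause was not tested. With 3 libraries per group, and 1 stress or control library moving the liver values by over 1.5 times, the size of the liver difference is not well fixed. Counts of Mt3 in testis and Slc39a4 in brain are too low to show a difference at this depth.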
